A study of Mus musculus with 9 samples.

Results

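Erythroblasts from the spleens of mice with 1 null allele of Dhh (Dhh+/-) were compared with those of wildtype mice by RNA sequencing. The comparison rests on 6 of the 9 libraries of the series, 3 heterozygous and 3 wildtype, and covers the 9543 of 20368 listed genes that reached 1 FPKM in at least 3 of the 9 libraries. FPKM is a read count scaled for gene length and library depth. The third group, 3 libraries from mice lacking both alleles (Dhh-/-), entered the fit to estimate the spread between libraries, and its values are given beside the others. All mice were 4 weeks old and of the strain C57BL/6, and the cells were sorted for CD71, the transferrin receptor, together with Ter119, a surface antigen of the erythroid lineage. How the Dhh allele was made is not stated in the labels, nor is it said that libraries of a group are separate mice. A p-value here is therefore about the scatter of these libraries, which may be technical.

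Dhh encodes Desert hedgehog, a secreted ligand that binds the receptor Ptch1 and so releases Smo, which signals to the Gli transcription factors. The red pulp of the mouse spleen makes red cells alongside the bone marrow, and more of them under stress, when BMP4 and erythropoietin act on its progenitors. CD71+Ter119+ cells are dividing erythroblasts that fill with globin and heme while they shrink and lose most of their other transcripts. The comparison asked what the loss of 1 Dhh allele does to the transcripts of these cells.

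The gene that defines the groups is shown first, with the promoter of the gene that had the lowest p-value, the theta-globin gene Hbq1b. Both are the 250 bases before the RefSeq start site (GRCm38.p6), at chr15:98898541-98898790 on the minus strand for Dhh and at chr11:32286714-32286963 on the plus strand for Hbq1b. Capitals mark matches to AGATAA, a motif of the GATA family, or CACCC, a motif of the Klf family, on either strand.
Dhh: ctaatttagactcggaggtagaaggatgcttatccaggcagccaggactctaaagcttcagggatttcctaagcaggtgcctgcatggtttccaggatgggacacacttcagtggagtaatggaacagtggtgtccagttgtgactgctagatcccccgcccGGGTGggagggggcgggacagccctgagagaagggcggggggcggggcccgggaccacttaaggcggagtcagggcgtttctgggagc
Hbq1b: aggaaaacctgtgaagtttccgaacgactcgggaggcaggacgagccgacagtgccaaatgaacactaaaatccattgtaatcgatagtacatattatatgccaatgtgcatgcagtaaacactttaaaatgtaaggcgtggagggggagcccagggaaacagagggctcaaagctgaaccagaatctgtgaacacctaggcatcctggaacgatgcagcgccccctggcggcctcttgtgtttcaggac
The Dhh window held 1 match to CACCC, read as GGGTG on the strand shown and 88 bases before the start, and no AGATAA. The Hbq1b window held neither. Over 32851 mouse promoter windows of the same length, 9.99% held AGATAA and 52.0% held CACCC, so these matches describe the letters and no binding.

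Dhh (ENSMUSG00000023000, chromosome 15, 98891152 to 98898540, minus strand, mm10) was listed at 0 in all libraries except heterozygous replicate 1, where it was at 0.0267 FPKM. Since wildtype libraries were at 0 as well, the genotypes could not be checked on it. The erythroid identity of the sort was plain in the 12 defining markers, none of which was at 0 in any library. Their summed level was 27607, 25453 and 19739 FPKM in wildtype and 15706, 28171 and 16513 FPKM in heterozygous libraries (replicates 1, 2 and 3, the order used throughout).

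The libraries also differed within each genotype. Heterozygous libraries held 14.23, 7.05 and 13.85 M recovered reads (M, 1e6 reads) and wildtype libraries 8.66, 9.66 and 13.2 M, so each group mixed shallower and deeper libraries (exact permutation test of 3 against 3, 2-sided, p = 0.8, adjusted p = 0.96 over 6 library measures). No measure could reach p below 0.1 in this design. Adult globin genes took 2.53%, 5.06% and 2.52% of the summed FPKM in heterozygous and 4.56%, 4.14% and 2.86% in wildtype libraries, high in the shallower libraries of both groups. The summed FPKM itself was 360215, 401806 and 371902 in heterozygous and 419558, 412799 and 419187 in wildtype libraries. Every heterozygous library lay below every wildtype library (exact permutation p = 0.1, the smallest the design allows, adjusted p = 0.6). The mean level of markers of other blood cell types, endothelial and stromal markers left out, was compared on the log2(FPKM + 1) scale. It was 3.14, 3.34 and 3.28 in heterozygous and 4.04, 3.50 and 1.72 in wildtype libraries. Wildtype replicate 3 stood apart at the low end, and it also lay farthest from the others on the first principal component, which held 62.2% of the variance. Wildtype libraries were the more scattered group, with a median SD per gene of 0.26 against 0.14 in heterozygous libraries (log2 scale, n = 3 each). An SD above 0.5 log2 units was seen for 19.5% of genes in wildtype and 2.7% in heterozygous libraries.

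**Figure D1:**
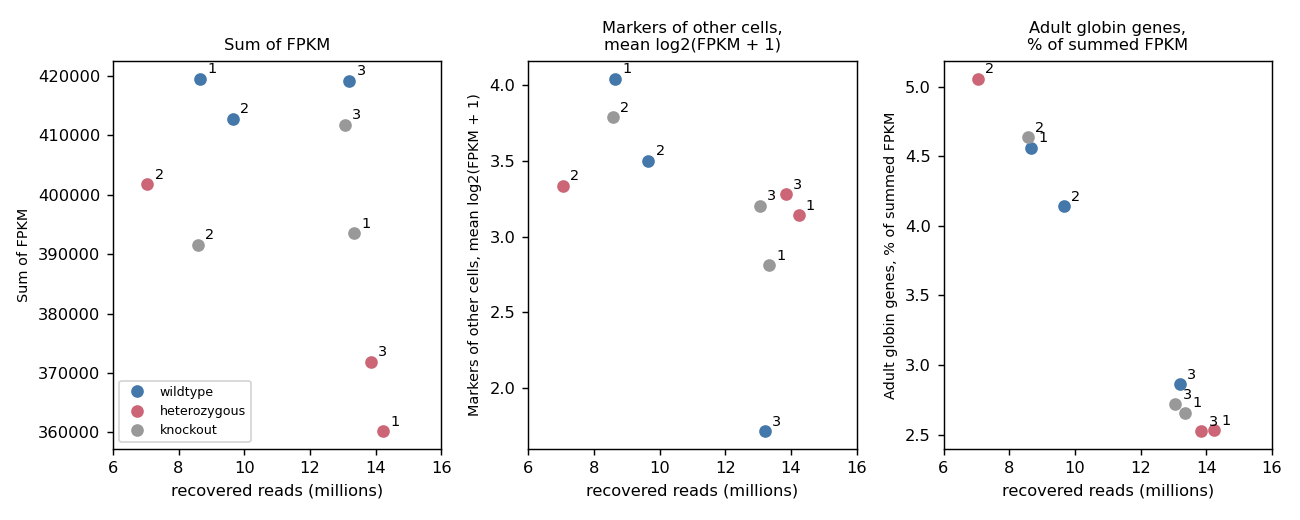
Summed FPKM, the mean log2(FPKM + 1) of markers of other cell types, and the share of summed FPKM from adult globin genes (vertical axes), against recovered reads (M, horizontal axis). Each point is 1 library, numbered by replicate. The 3 heterozygous libraries lie below the 3 wildtype libraries in summed FPKM, wildtype replicate 3 is lowest in other-cell markers at 1.72, and globin share is high in the 4 libraries under 10 M reads.

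No gene differed between heterozygous and wildtype erythroblasts at an adjusted p below 0.05. Limma with Benjamini-Hochberg adjustment called 0 of 9543 genes (0.0%), none with an adjusted p under 0.9999. Before adjustment, 113 genes (1.18%) had p below 0.05, fewer than the 477 expected by chance, and limma's voom on the recovered reads gave 91 such genes and again 0 calls. Means were lower in heterozygous libraries for 4831 genes (50.6%) and higher for 4712 (49.4%). Of the 113, 98 (1.03%) were lower and 15 (0.157%) higher in heterozygous libraries. Scaling every library to the same summed FPKM moved the median of all genes by 0.12 on the log2 scale and turned that split to 14 lower and 95 higher. Likewise, 416 genes (4.36%) had groups that did not overlap. For 293 genes (3.07%) this meant every heterozygous library below every wildtype library and for 123 (1.29%) the reverse, while after equal-sum scaling the counts were 47 and 551. A typical 95% interval of the difference extended 0.42 to each side (median, log2), and 85.2% of the intervals lay within a 2-fold change. The scale understates changes of genes with few reads.

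The gene with the lowest unadjusted p was Hbq1b, one of a pair of theta-globin genes of the alpha-globin cluster (ENSMUSG00000073063, chromosome 11, 32286965 to 32287784). It was at 160, 163 and 158 FPKM in heterozygous, 227, 238 and 197 FPKM in wildtype and 207, 206 and 216 FPKM in knockout libraries. The heterozygous values were nearly equal and lay below all 6 others. The difference from wildtype was -0.45 ± 0.11 on the log2(FPKM + 1) scale (SE, unadjusted p = 0.00216, limma adjusted p = 0.9999), and -0.31 after equal-sum scaling. Its near-identical copy Hbq1a was at 14.0, 51.5 and 17.4 FPKM in heterozygous and 68.3, 46.6 and 25.5 FPKM in wildtype libraries, which overlapped. Reads could be split between these copies.

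Uqcrh, a small subunit of respiratory complex III, was next. Its level was 227, 251 and 231 FPKM in heterozygous and 342, 285 and 337 FPKM in wildtype libraries, with knockout libraries between at 268, 284 and 275. The groups did not overlap, and the difference was -0.44 ± 0.11 (unadjusted p = 0.00343). Cox7b, a subunit of cytochrome c oxidase, was at 76.3, 91.6 and 76.9 FPKM against 122, 109 and 112 FPKM in wildtype. Atp5l, a subunit of the mitochondrial ATP synthase, was at 207, 273 and 223 FPKM against 349, 352 and 301 FPKM. In all 3 genes the heterozygous library nearest to wildtype was replicate 2, the shallow one.

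Bbc3 encodes PUMA, a BH3-only protein that triggers apoptosis and a target of p53. It was at 10.1, 8.46 and 9.58 FPKM in heterozygous and 13.4, 12.8 and 14.5 FPKM in wildtype libraries, a difference of -0.49 ± 0.14 (unadjusted p = 0.00568). The groups did not overlap. Among the 3 shallower libraries of these genotypes, where heterozygous replicate 2 stands by itself, the difference was -0.57. Among the 3 deeper ones, where wildtype replicate 3 stands by itself, it was -0.52. Commd9, which encodes a COMM domain protein, was at 2.37, 3.03 and 2.56 FPKM against 3.63, 4.60 and 5.41 FPKM. Supt4a, which encodes a subunit of a transcription elongation factor, was at 125, 114 and 135 FPKM against 177, 152 and 179 FPKM. Sar1b, a small GTPase of transport vesicles leaving the endoplasmic reticulum, was at 10.9, 8.97 and 11.6 FPKM against 15.4, 12.5 and 16.2 FPKM. Each of these groups was separate as well. The other genes among the 15 of lowest p, Selk, Rpl41, Snrnp27, Grcc10, Jund, Pnrc1 and Rec114, were also lower in heterozygous libraries, by 0.40 to 0.83 on the log2 scale, and Jund alone of the 15 had overlapping groups. Jund, a subunit of the transcription factor AP-1, was at 66.6, 53.2 and 53.8 FPKM against 127, 64.6 and 135 FPKM, where wildtype replicate 2 lay inside the heterozygous range.

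Of the 123 genes above wildtype without overlap, 63 were in the lowest of 4 equal bins of mean FPKM and 6 in the highest. Of the genes named here, Gatsl3 and Ppp1r14a rested on few reads. Gatsl3, whose product senses arginine for mTORC1, was at 1.22, 1.33 and 0.550 FPKM against 0.372, 0.330 and 0.145 FPKM in wildtype, on 30, 15 and 13 reads against 5, 5 and 3. The difference was 0.65 ± 0.21 (unadjusted p = 0.0137). Ppp1r14a, an inhibitor of myosin phosphatase, had 7, 5 and 6 reads in heterozygous and 1, 0 and 0 in wildtype libraries. Adi1, an enzyme of methionine salvage, was at 2.41, 3.93 and 2.46 FPKM against 2.27, 1.34 and 0.937 FPKM. Hist1h4d, 1 of many near-identical histone H4 genes, had the largest difference of any gene with separate groups (1.11 ± 0.55). Heterozygous replicate 2 carried it, at 28.1 FPKM, while replicates 1 and 3 were at 8.10 and 6.93 FPKM and wildtype reached 6.28 FPKM.

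**Figure D2:**
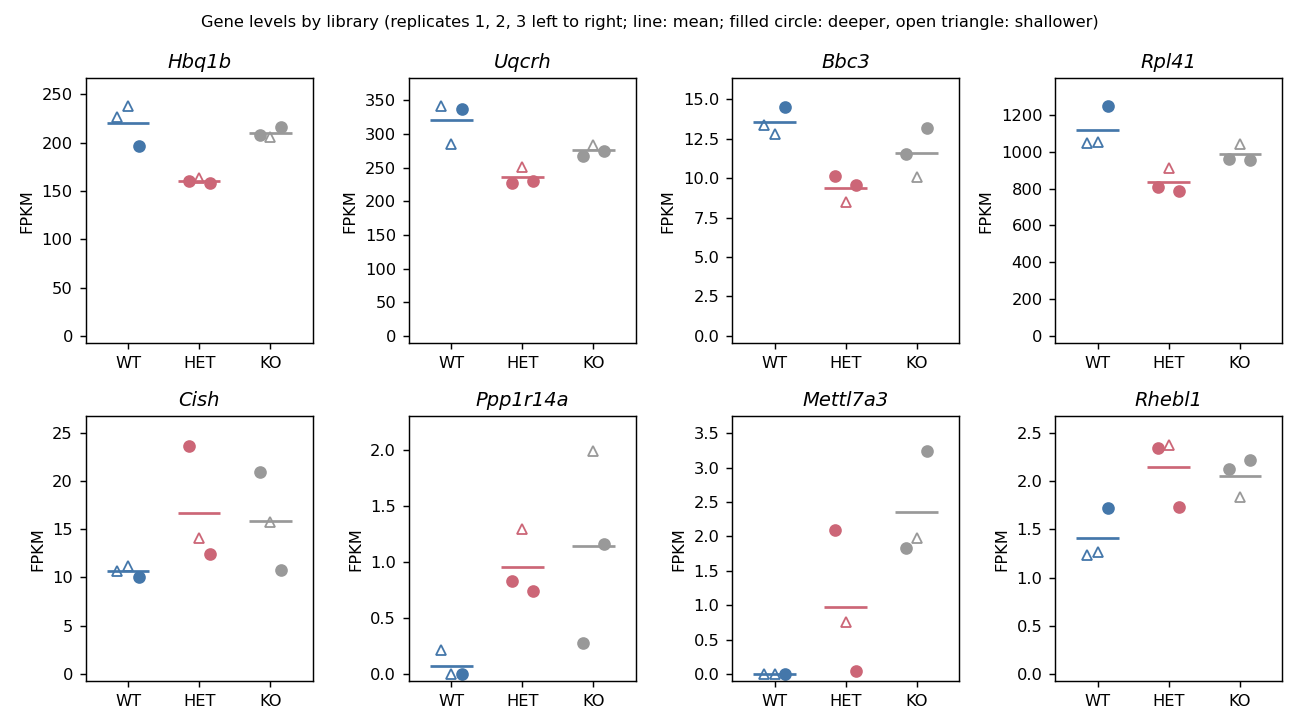
FPKM (vertical axes) of 8 genes in each library, by genotype (WT wildtype, HET heterozygous, KO knockout), with replicates 1, 2 and 3 from left to right and a line at the group mean. Filled circles are the deeper and open triangles the shallower libraries. Hbq1b, Uqcrh, Bbc3 and Rpl41 show every heterozygous library below every wildtype library, and the lower row shows 4 genes with the reverse order.

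Genes for the translation and respiration machinery leaned lower in heterozygous libraries. Of 78 cytosolic ribosomal protein genes tested, 74 had a lower mean in heterozygous libraries, 22 (28.2%) lay below wildtype without overlap against 3.07% of all genes, and none lay above. The median difference was -0.23 (log2), against -0.00 over all genes, and 0 passed the adjusted test. Rpl41, which encodes a very short protein of the large subunit, was at 808, 911 and 787 FPKM against 1046, 1053 and 1248 FPKM. The difference was -0.42 ± 0.12 (unadjusted p = 0.00827). Rpl37a was at 286, 338 and 322 FPKM against 363, 378 and 487 FPKM, and Rps14 at 483, 590 and 589 FPKM against 658, 609 and 849 FPKM. Rps16 went the other way, at 487, 508 and 519 FPKM against 393, 479 and 544 FPKM, with overlapping groups.

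Relative to all genes, the ribosomal median was lower by about the same amount at equal sums and by less after quantile normalization. Equal-sum scaling multiplies each library by 1 factor, so it could hardly change this gap. At equal sums the ribosomal median was -0.09 while the median of all genes was 0.12, a gap of -0.21 against -0.23 as deposited. There 3 of the 78 genes were still separate below and 1 above, against 0.493% and 5.77% of all genes. After quantile normalization the ribosomal median was -0.05, against -0.00 for all genes. Then 2 of the 78 were separate below and 4 above, against 2.36% and 1.58% of all genes. The shift was smaller without wildtype replicate 3. Ribosomal genes took 10.3% of the summed FPKM in wildtype replicate 3, and between 7.68% and 8.26% in the other 5 libraries. Without that replicate the median was -0.09. Among deeper libraries it was -0.54, where that replicate is the only wildtype library, and among shallower ones -0.02. Wildtype replicate 3 also had the lowest level of markers of other cell types. With that marker level as a term in the fit, the ribosomal median was -0.20, with 74 genes lower. What part of the shift goes with these markers was not tested.

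Nuclear genes of the respiratory chain behaved much the same. A lower mean was seen for 45 of 46, and 9 (19.6%, against 3.07% of all genes) lay below wildtype without overlap, among them subunits of complexes I, III and IV and of the ATP synthase, and the electron carrier Cycs. The median was -0.18, and it was -0.04 with equal sums (all genes 0.12), -0.08 after quantile normalization and -0.02 without wildtype replicate 3. Ndufb3, a subunit of complex I, was at 34.7, 35.8 and 50.1 FPKM against 50.2, 51.4 and 61.6 FPKM in wildtype. Cycs, cytochrome c, was at 16.9, 18.6 and 16.8 FPKM against 19.8, 19.1 and 22.2 FPKM. Uqcrh and Cox7b, described above, kept separate groups under equal-sum and quantile scaling, as did Hbq1b, Bbc3 and Commd9, and Rpl41 did so only under the former. For proteasome genes 34 of 37 were lower with a median of -0.12. This median was 0.02 with equal sums, where that of all genes was 0.12, and 0.01 without wildtype replicate 3. Psmb5, a catalytic subunit, was at 40.6, 41.4 and 40.8 FPKM against 44.8, 50.4 and 52.5 FPKM, while the immunoproteasome subunits Psmb8 and Psmb10 had higher means by 0.28 and 0.29.

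These lists hold short, abundant transcripts, and length and abundance marked the shift across all genes. Transcript lengths were taken from the scaling constants of the table. The genes were split into 4 equal bins by length. In the shortest bin (300.9 to 1785.8 nucleotides) 142 of 2387 genes (5.95%) lay below wildtype without overlap and 35 above, with a median of -0.06. In the longest bin, from 4269.2 nucleotides up, 32 (1.34%) lay below and 31 above, with a median of 0.03. Short genes that were also in the most abundant of 4 such bins had the lowest median, -0.14 over 803 genes, and 85 of them (10.6%) lay below against 1 above. With equal sums this median was 0.00, where that of all genes was 0.12, and without wildtype replicate 3 it was -0.04. The median of the shortest bin stayed below that of the longest without any 1 of the 6 libraries, and under quantile scaling. It did so at equal sums too, where the order could hardly change. An index of this length trend, the median deviation of the shortest minus that of the longest bin, was -0.11, -0.11 and 0.05 in heterozygous and -0.00, -0.01 and 0.14 in wildtype libraries (exact permutation p = 0.3, adjusted p = 0.6), so heterozygous replicate 3 overlapped wildtype.

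**Figure D3:**
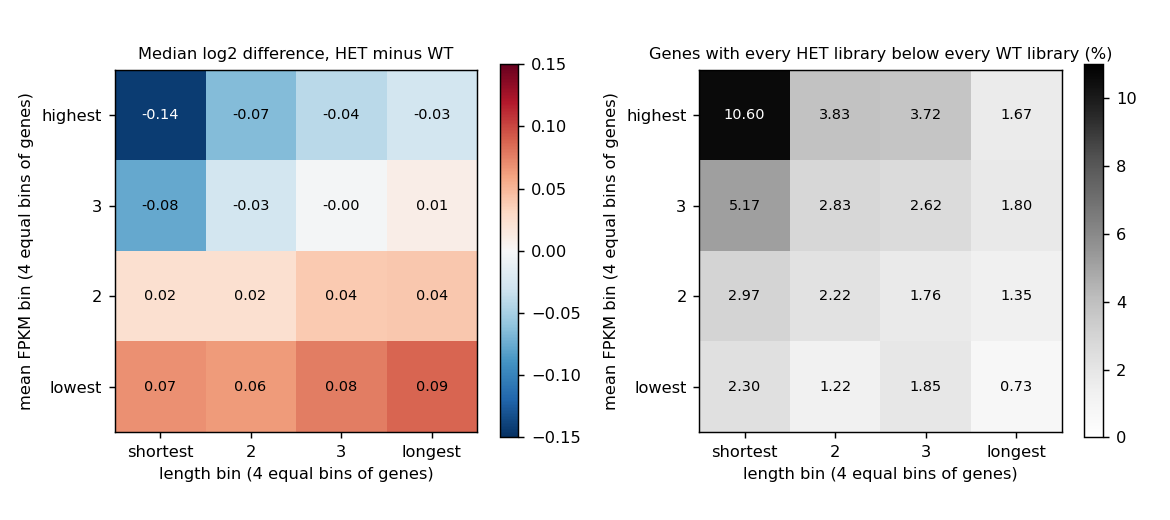
Tested genes split into 4 equal bins of transcript length (horizontal) and of mean FPKM (vertical). The left map gives the median log2(FPKM + 1) difference, heterozygous minus wildtype, and the right map the percentage of genes with every heterozygous library below every wildtype library. The short and abundant corner holds the lowest median, -0.14, and the highest share, 10.6%.

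The main regulators of the erythroid program overlapped between the genotypes. Gata1, which drives erythroid genes, was at 196, 190 and 206 FPKM in heterozygous and 184, 219 and 254 FPKM in wildtype libraries. Klf1, an activator of adult beta-globin, was at 331, 333 and 360 FPKM against 319, 409 and 404 FPKM. The 24 erythroid transcription factors had 10 lower and 14 higher means, no gene with separate groups, and a median of 0.02, with 0.16 at equal sums (all genes 0.12). Tfrc, the gene for CD71, was at 447, 389.5 and 495 FPKM against 475, 481 and 474 FPKM, overlapping. The 95% interval of the difference ran from -0.47 to 0.20 for Klf1, from -0.50 to 0.23 for Gata1 and from -0.54 to 0.32 for Tfrc, which bounds but does not exclude modest changes.

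Late maturation genes leaned lower, and several of the most abundant were high in the shallower libraries of both genotypes. All 28 tested had a lower mean in heterozygous libraries, with a median of -0.26, and only Fbxo7, a ubiquitin ligase subunit, had separate groups (3.57%, near the 3.07% of all genes). The median was -0.11 among deeper and -0.15 among shallower libraries, -0.15 without wildtype replicate 1 (22 lower) and -0.42 without wildtype replicate 3 (27 lower). The lean held in 22 genes with equal sums (median -0.12, all genes 0.12) and in 23 after quantile normalization (median -0.09). Bpgm, which makes the regulator of oxygen affinity 2,3-bisphosphoglycerate, was at 624, 2251 and 652 FPKM in heterozygous and 2044, 1877 and 998 FPKM in wildtype libraries. Alas2, the first enzyme of erythroid heme synthesis, was at 2884, 7458 and 2994 FPKM against 7090, 6379 and 4069 FPKM. Hbb-bs, an adult beta-globin gene, was at 4022, 8985 and 4212 FPKM against 8711, 7642 and 5453 FPKM. In each of these genes heterozygous replicate 2 was the highest of the 6 libraries, and the deeper libraries of both genotypes were low. Of 9 globin genes and their chaperone 8 were lower, with a median of -0.34 over all 6 libraries, -0.34 among deeper and 0.09 among shallower libraries. Single libraries moved this median, which was -0.14 without heterozygous replicate 1, -0.67 without heterozygous replicate 2 and -0.53 without wildtype replicate 3. Hba-x, the embryonic zeta-globin gene, lay above wildtype without overlap at 2.31, 2.74 and 2.51 FPKM against 2.30, 1.02 and 2.24 FPKM, a margin at replicate 1 of almost nothing.

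Among heme genes, Urod, an enzyme of heme synthesis, was at 1031, 1061 and 1171 FPKM in heterozygous and 1323, 1219 and 1264 FPKM in wildtype libraries. Tspo2, an erythroid membrane protein, was at 501, 507 and 524 FPKM against 696, 642 and 545 FPKM. Both had separate groups and neither passed the adjusted test. Of 20 heme genes 16 were lower with a median of -0.07, which was 0.06 with equal sums, 0.06 after quantile normalization and -0.18 without wildtype replicate 1. Of 22 membrane and cytoskeleton genes 19 were lower with a median of -0.10, which was 0.05 and 0.10 under these 2 scalings. Iron handling genes had 14 of 19 lower and a median of -0.06, which was 0.09 and 0.07 under them and -0.12 without wildtype replicate 1. Relative to the median of all genes, which is 0.12 at equal sums, the gaps were -0.07 as deposited and -0.06 at equal sums for heme, -0.10 and -0.08 for membrane and -0.05 and -0.04 for iron genes. Equal-sum scaling multiplies each library by 1 factor, so it could hardly change these gaps. After quantile normalization, which could change them, the medians of these 3 lists lay above that of all genes.

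Hedgehog pathway genes overlapped between the genotypes. Of 31 listed, 11 passed the filter on low values, 6 with higher and 5 with lower means (median 0.02). None had separate groups, against 4.36% of all genes, a share at which 11 genes could well hold none. None had an unadjusted p below 0.05. At equal sums the median was 0.15, where that of all genes was 0.12. The largest difference was that of Arrb2, 0.38 ± 0.52, with a wide 95% interval from -0.80 to 1.57. Ptch1, the receptor and a standard target of the pathway, was at 2.83, 3.41 and 1.90 FPKM in heterozygous and 2.03, 2.56 and 3.60 FPKM in wildtype libraries. The difference was -0.01 ± 0.24, with an interval from -0.56 to 0.55. Sufu, which holds Gli proteins in the cytoplasm, was at 2.44, 3.25 and 2.28 FPKM against 1.81, 2.55 and 1.97 FPKM, and Spop, an adaptor for Gli breakdown, at 65.5, 72.5 and 62.9 FPKM against 86.3, 74.96 and 67.3 FPKM. The kinase Csnk1a1 was at 113, 99.8 and 105 FPKM against 94.6, 96.3 and 123 FPKM.

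Among erythropoietin and JAK-STAT5 genes, Cish was the 1 of 17 with separate groups (5.88% above wildtype, against 1.29% of all genes). Cish, a feedback inhibitor induced by Stat5, was at 23.6, 14.1 and 12.5 FPKM in heterozygous and 10.7, 11.2 and 10.001 FPKM in wildtype libraries, with 20.9, 15.8 and 10.7 FPKM in knockout libraries. Every heterozygous library was higher, replicate 1 most of all, and the difference was 0.56 ± 0.27 (unadjusted p = 0.0672). Epor, the erythropoietin receptor, was at 234, 215 and 253 FPKM against 198, 256 and 252 FPKM. Other Stat5 targets did not share the order of Cish: Pim1 was at 232, 195 and 179 FPKM against 287, 224 and 219 FPKM, and Bcl2l1 at 226, 275 and 238 FPKM against 351, 307 and 228 FPKM. The list had 8 lower and 9 higher means with a median of 0.04. For BMP and stress erythropoiesis 4 of 14 were lower with a median of 0.10, which was 0.31 without wildtype replicate 1 and -0.22 without wildtype replicate 3. Bmp4 was listed at 0 in all heterozygous libraries and in all wildtype libraries but replicate 3 (0.0375 FPKM), and Smad5 was at 1.74, 1.70 and 1.53 FPKM against 1.56, 1.91 and 1.40 FPKM.

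Cell cycle genes changed direction with 1 library. Of 39 G1/S and replication genes 31 were lower in heterozygous libraries (median -0.09), and without wildtype replicate 3 only 5 were lower (median 0.14). Mcm2, a subunit of the replicative helicase, was at 198, 226 and 184 FPKM against 162, 202 and 315 FPKM, with wildtype replicate 3 above all. G2/M genes had 26 of 32 lower (median -0.06) and 5 of 32 without that replicate (median 0.07). Both lists had positive medians, 0.05 and 0.08 at equal sums (below the 0.12 of all genes) and 0.01 and 0.07 after quantile normalization.

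Apoptosis and stress lists each held 1 or 2 genes below wildtype without overlap, at shares above the 3.07% of all genes. These were 2 of 23 immediate early (8.7%), 2 of 29 interferon (6.9%) and 1 of 15 heat shock genes (6.67%). The integrated stress response had 1 of 22 (4.55%) and the BCL2 family 1 of 23 (4.35%), with 1 above (4.35%, against 1.29% of all genes). Bbc3, Btg2 and Ppp1r15a were each on 2 of these lists. Bbc3 and Btg2, an antiproliferative p53 target, were the 2 of 17 p53 targets (11.8%, against 3.07% of all genes) below wildtype. Btg2 was at 114, 112 and 136 FPKM against 154, 141 and 158 FPKM. The p53 list had 11 lower means and a median of -0.11, or 0.02 at equal sums, where all genes were at 0.12. It turned to 0.06 without wildtype replicate 1 (7 lower), was -0.24 without wildtype replicate 3 (15 lower), and was 0.28 among deeper and -0.30 among shallower libraries. Ppp1r15a, which reverses the block on translation in the integrated stress response, was at 525, 464 and 515 FPKM against 698, 546 and 617 FPKM. That list had 14 of 22 lower (median -0.04, 0.09 at equal sums, 0.00 after quantile normalization and -0.15 without wildtype replicate 3). Immediate early genes, which respond to cell handling, differed most within wildtype. Fos was at 252, 39.2 and 30.8 FPKM in wildtype and 88.8, 43.2 and 102 FPKM in heterozygous libraries, and the list median of -0.13 became 0.01 at equal sums, 0.60 without wildtype replicate 1 and -0.44 without wildtype replicate 3. Type I interferon genes were lower in 22 of 29 (median -0.12, and 0.01 at equal sums), and the median was 0.04 without wildtype replicate 2, -0.31 without wildtype replicate 3, 0.23 among deeper and -0.30 among shallower libraries. At equal sums the medians of the last 3 lists lay below that of all genes, a gap that such scaling could hardly change. Cholesterol synthesis genes had higher means in 15 of 18 (median 0.11, and 0.02 after quantile normalization), with no separate groups, and the lists for heat shock, antioxidant, glycolysis, BCL2 family and early progenitor genes had medians between -0.07 and 0.04.

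**Figure D4:**
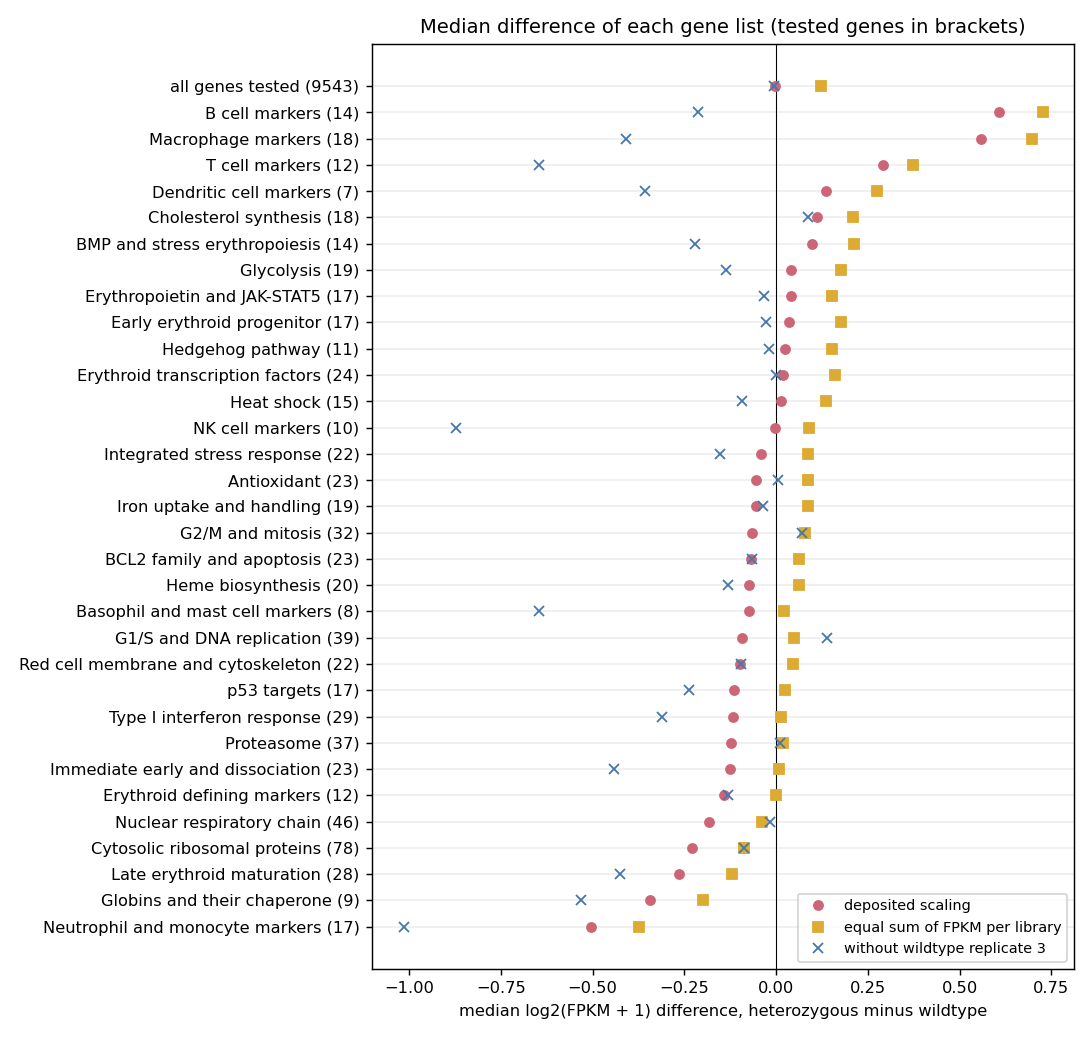
Median log2(FPKM + 1) difference, heterozygous minus wildtype, of each gene list with 5 or more tested members (count in brackets), as deposited, after scaling to equal summed FPKM, and without wildtype replicate 3. Equal sums shift every list shown to the right, and the median of all genes to 0.12, and leaving out wildtype replicate 3 turns B cell markers from 0.61 to -0.21 and macrophage markers from 0.56 to -0.41.

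RNA of other cell types was present in every library and uneven within wildtype. B cell markers summed to 673, 711 and 884 FPKM in heterozygous and 1488, 528 and 96.0 FPKM in wildtype libraries. Macrophage markers summed to 1226, 1012 and 1101 FPKM against 1835, 1167 and 192 FPKM, and T cell markers to 49.98, 107 and 44.7 FPKM against 105, 113 and 9.35 FPKM. Heterozygous libraries lay inside the wildtype range for all 3. All 14 tested B cell markers had higher means in heterozygous libraries (median 0.61), and without wildtype replicate 3, which had 3 of 16 B cell and 5 of 14 T cell markers at 0, 13 of the 14 were lower (median -0.21). Cd74, an antigen presentation gene, was at 360, 361 and 462 FPKM against 751, 269 and 49.6 FPKM. C1qa, which macrophages express for the complement cascade, was at 105, 88.6 and 92.5 FPKM against 164, 108 and 12.2 FPKM. Neutrophil and monocyte markers summed to 506, 1027 and 1214 FPKM against 1617, 2051 and 423 FPKM, dendritic cell markers to 60.6, 62.6 and 69.7 against 85.2, 81.5 and 24.6, NK cell markers to 54.5, 53.8 and 48.9 against 154, 77.1 and 1.24, and basophil and mast cell markers to 24.8, 17.8 and 31.4 against 80.3, 30.6 and 4.08. Megakaryocyte markers summed to 46.8, 46.9 and 51.8 FPKM against 51.6, 45.3 and 49.1, and endothelial and stromal markers to 7.46, 7.15 and 5.42 against 13.6, 8.42 and 0.704. In bulk RNA, fewer cells of a type and less RNA per cell cannot be told apart.

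Genes beside Dhh were examined as a group. Within 10 Mb on chromosome 15, 104 genes were tested, 65 with higher and 39 with lower means (median 0.04), 0 were called and 5 had an unadjusted p below 0.05. Separate groups were seen above wildtype for Rhebl1, Npff and Mettl7a3 (2.88%) and below for Dazap2, Cox14 and Rpap3 (2.88%), against 1.29% and 3.07% of all genes. Rhebl1, a Rheb-like GTPase whose annotated span (98877778 to 98894540, minus strand) overlaps Dhh, was at 2.34, 2.37 and 1.73 FPKM against 1.23, 1.26 and 1.73 FPKM, with 2.12, 1.83 and 2.22 FPKM in knockout libraries. Heterozygous replicate 3 was level with wildtype replicate 3, and reads of overlapping genes cannot be told apart here. The difference was 0.39 ± 0.16 (unadjusted p = 0.043).

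Mettl7a3, a methyltransferase-like gene (chromosome 15, 100334929 to 100340375), was the sharpest of them. It had 0 reads in the 3 wildtype libraries, 48, 8 and 1 in heterozygous and 36, 27 and 61 in knockout libraries. In FPKM these were 2.10, 0.759 and 0.0453 in heterozygous and 1.83, 1.98 and 3.24 in knockout libraries. Against a floor of 3 reads per wildtype library, the mean was at least 4.79-fold higher in heterozygous and at least 11.6-fold higher in knockout libraries, which covers counting error only. The heterozygous bound rests on replicate 1: the mean of the other 2 was 0.402 FPKM, 1.99-fold the floor, and replicate 3 alone lay below the floor mean of 0.202 FPKM. Heterozygous replicate 3, with 1 read, was nearer to wildtype than to the other heterozygous libraries. The neighbouring related genes, chosen after their values were seen, set the same replicate apart. Mettl7a2+Methig1 was at 1.53, 0.461 and 0 FPKM in heterozygous and 0.0704, 0 and 0 FPKM in wildtype libraries, and Mettl7a1 at 35.9, 37.0 and 66.1 FPKM against 60.1, 63.5 and 46.7 FPKM. In knockout libraries Mettl7a2+Methig1 was at 1.01, 1.13 and 2.32 FPKM and Mettl7a1 at 58.6, 29.3 and 57.4 FPKM. Mettl7a1 was thus below the wildtype range in knockout replicate 2 alone, and heterozygous replicate 3 lay above that range. Tuba1a, an alpha-tubulin gene of the region also chosen in this way, was at 15.02, 11.5 and 5.19 FPKM against 9.99, 5.64 and 4.56 FPKM. Here heterozygous replicate 3 lay within the wildtype range. Related genes can share reads. Dazap2 was at 108, 183 and 131 FPKM against 216, 203 and 186 FPKM, and Smarcd1, a chromatin remodelling subunit, at 7.30, 7.78 and 8.93 FPKM against 8.88, 11.3 and 12.4 FPKM, overlapping at heterozygous replicate 3.

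Knockout values are set beside these because the wildtype libraries are shared by both comparisons, so agreement between them is not read. Against wildtype the knockout libraries also gave 0 calls, with 134 genes (1.4%) below and 103 (1.08%) above without overlap. The ribosomal median was -0.15 in knockout and -0.23 in heterozygous libraries, the respiratory chain median -0.10 and -0.18, and the late maturation median -0.10 and -0.26. The direct test of heterozygous against knockout called 0 of 9543 genes (lowest limma adjusted p = 0.9996), with 56 (0.587%) at an unadjusted p below 0.05. Hbq1b was among these 56, higher in knockout by 0.38 ± 0.11 (limma unadjusted p = 0.00578). It was chosen for its low p against wildtype, and the same heterozygous libraries enter here, so this is not separate support. Npff, a neuropeptide precursor, was at 1.70, 4.00 and 1.91 FPKM in heterozygous, 1.29, 1.14 and 1.51 FPKM in wildtype and 1.32, 0.712 and 0.345 FPKM in knockout libraries, lower in knockout than in heterozygous by a log2 difference of -0.96 ± 0.28 (unadjusted p = 0.0073), on 2 to 13 reads per library. Each fails the adjustment over all genes.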

How the data were processed

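RNA of sorted CD71+Ter119+ spleen cells was sequenced, and the authors deposited FPKM values of 20368 genes for each library in 1 table. TopHat, Picard, DESeq2 and mm10 appear in the submitters' processing notes. Annotation, strandedness and read pairing were not given in the sources used here. Overlapping, antisense and near-identical genes can therefore share reads. For each of 14147 genes detected in 2 or more libraries, the values stepped in whole reads (tolerance 0.05 of a read). The library scale of those steps matched median-of-ratios size factors computed on 11276 genes. The deposited FPKM thus carry a gene constant and a size factor in place of the library total, so their sums differ. Positions came from GENCODE M21 (20092 rows matched, 98.6%), and 26 symbols turned into dates were restored. Promoters came from the RefSeq table, which held both genes shown. Every one of the 36 library pairs differed beyond sampling noise (chi-square divided by its degrees of freedom at least 7.78).

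Limma 3.58.1 in R 4.3.3 was fitted to log2(FPKM + 1) with a mean per genotype over 9 libraries, a trend in eBayes and 2-sided Benjamini-Hochberg adjusted p below 0.05. Exact permutation tests used scipy 1.17.1. Groups were called separate where every library of one lay beyond every library of the other. The depth sets were defined from recovered reads. A count of 0 allows up to 3 reads.

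The members and the 34 gene lists were chosen with earlier results of these data known, so no list is independent evidence. The named genes were the Hedgehog list, the 15 lowest unadjusted p, the 5 largest differences in each direction with separate groups, 10 fixed erythroid and BMP genes, the 2 most abundant members and the lowest p of each list, and the 5 lowest p within 10 Mb of Dhh. Further list members, Npff, Cox14, the Mettl7a neighbours, Tuba1a and the genes under other observations were chosen after their values were seen. There were 22 other settings listed at the start and 5 added after seeing the data (a length index term, a marker term, the deeper or the shallower libraries alone, and equal summed FPKM). Some genes are not reported here.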

Additional observations from a re-analysis of the deposited data

How the results depend on the processing

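The count of 0 called genes held under all alternatives run except 3. Library weights in limma, a setting whose estimate did not converge and gave wildtype replicate 2 a weight of 42.9 and the other wildtype libraries 0.256 and 0.120, called 739 genes (281 higher, 458 lower in heterozygous libraries). The 5 deeper libraries alone, where wildtype replicate 3 stands by itself and is assumed to vary like the other groups, called 1864 (1230 higher, 634 lower). The 4 shallower ones, with heterozygous replicate 2 by itself, called 1 (1 higher). Leaving out any 1 library called 0 to 0 genes, with 62 to 354 at an unadjusted p below 0.05. That count was 354 without wildtype replicate 1 (193 higher, 161 lower) and 293 without wildtype replicate 3 (92 higher, 201 lower). It was 62 without heterozygous replicate 1. It was 248 with a depth term, 382 with a marker term and 73 with a length index term. With globin genes left out and libraries rescaled the split was 94 higher and 15 lower. Without a filter on low values 285 of 14934 genes had an unadjusted p below 0.05. The replicate numbers did not pair the libraries: deviations from group means correlated at 0.13, 0.18 and 0.00 between same-numbered wildtype and heterozygous libraries, and wildtype replicate 3 correlated best with heterozygous replicate 2. With the replicate block 0 genes were called and 161 had an unadjusted p below 0.05. Of 3510 alternative values of 131 named genes, 239 had the opposite sign and 5 of these passed the adjusted test. With library weights Bst2 was at -0.59. In the deeper libraries Gp9 was at -0.43, Prss34 at 2.15, Mcpt8 at 1.77 and Cma1 at 0.93. The cause was not tested.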

Other observations

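Some genes, found after their values were seen, had a gap of over 3 log2 units between neighbouring libraries when the 9 were put in order. Klhl7, which encodes an adaptor of a ubiquitin ligase, was nearly missing from 1 heterozygous library. It was at 0.350, 28.2 and 36.2 FPKM in heterozygous and 33.7, 30.0 and 30.1 FPKM in wildtype libraries, on 19 reads in heterozygous replicate 1, the deepest library. Apobec3, an antiviral deaminase gene on chromosome 15, was at 103, 7.30 and 6.21 FPKM in heterozygous and 96.8, 6.06 and 9.40 FPKM in wildtype libraries, high in replicate 1 of both. In knockout libraries it was at 6.85, 7.19 and 6.10 FPKM. The Y-linked genes Eif2s3y and Ddx3y were present in all 6 heterozygous and wildtype libraries, from 40.0 to 57.7 FPKM and from 15.6 to 23.6 FPKM, and at 0.599 and 0.410 FPKM in knockout replicate 2, which entered the estimate of the spread. Ccl5 and Gzma are expressed by T and NK cells and were lowest in wildtype replicate 3, at 1.27 and 0.341 FPKM.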
